A study of Homo sapiens with 12 samples.

Results

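The kinesin genes were described in spheroids of 3 derivatives of the prostate cancer line DU145. Members were taken by name, as every gene whose symbol is KIF followed by a number and optional further characters, and this rule found 39 of the 26485 genes counted. By known function 14 were placed among mitotic kinesins, 13 among transport kinesins, 10 among kinesins of cilia and of microtubule ends, and 2, KIF26A and KIF26B, form the kinesin-11 family. Kinesin motors with other kinds of symbol (KIFC1, KIFC2, KIFC3 and CENPE) were kept apart. All 3 lines carry a CRISPR-Cas9 knock-out of ITGA2, the gene of the α2 integrin subunit, which pairs with β1 to form a collagen receptor. DU145KO was not transfected further, DU145KO+α2 was stably transfected with α2 integrin cDNA in the pAWneo2 plasmid, and DU145KO+vector with empty pAWneo2. Both transfected lines were grown with the drug geneticin, which the study does not state for DU145KO. A difference from DU145KO therefore cannot be told apart from an effect of transfection or of this drug. Each line had 4 samples, 12 in all, and the unedited parental line was not analysed here. Spheroids were kept without serum for 72 hours before RNA extraction. The sources used here do not say whether the transfected lines are single clones or pools, so that a difference between 2 lines cannot be told apart from a difference between the cells from which they were grown.

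Kinesins are motor proteins that use ATP to move along microtubules or to take them apart. Mitotic kinesins build and move the spindle, align chromosomes and complete cell division, and in cycling cells their mRNAs peak in G2 and mitosis. Transport kinesins carry vesicles, organelles and mRNAs outward from the cell centre, and are needed whether or not a cell divides. The KIF26 proteins are divergent members whose motor domain is not thought to use ATP. KIF26B is known as a target of signalling from WNT5A through ROR receptors and as a regulator of cell adhesion and movement.

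The gene counts of a sample summed to 13948734 at the lowest and 19988111 at the highest. Samples are compared on CPM (counts scaled to the library size, with TMM factors), and 3 counts, taken as the detection floor, correspond to 0.15 to 0.215 CPM depending on the sample. Levels between genes are given as RPKM, which also divides by gene length. These limits cover counting error only. ITGA2 matched the labels: it was at 259 to 332 CPM in DU145KO+α2, against 15.7 to 25.8 CPM in DU145KO and 13 to 20.2 CPM in DU145KO+vector. The epithelial genes KRT8 (319 to 623 CPM), KRT18, KRT19, EPCAM and CDH1 were detected in every sample, while the leukocyte genes PTPRC and CD3E and the fibroblast collagen gene COL1A2 had at most 2 counts in any sample. COL1A1 was present at 7.64 to 12.1 CPM in all lines, the endothelial gene PECAM1 had 8 to 22 counts per sample, and the liver gene ALB 2 to 13. EPCAM and CDH1 were themselves highest in DU145KO, with means of 159 and 134 CPM, against 89.4 and 99.8 CPM in DU145KO+vector and 72.1 and 61.3 CPM in DU145KO+α2. EPCAM passed the test in both transfected lines against DU145KO and not between them (edgeR adjusted p = 0.0917). CDH1 passed in DU145KO+α2 against both other lines. KRT18 passed in DU145KO+α2 against DU145KO (log2 fold change -0.42, edgeR adjusted p = 0.0434). All 5 epithelial genes had negative log2 fold changes in DU145KO+α2 against each other line. A second fit also allowed for the replicate number (the replicate block). There DU145KO+α2 was lower for 4 of 5 against DU145KO (12.4% of all genes) and for 3 of 5 against DU145KO+vector (13.7%).

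Of the 39 kinesin genes, 33 had enough reads to be tested and 6 did not. KIF2B had 0 counts in all 12 samples, and KIF6 had 0 or 1. KIF4B had 0 to 3 counts, KIF5A, the neuronal conventional kinesin, 0 to 3, KIF19 0 to 5, and KIF25 3 to 13. KIF4B is a near-identical retrocopy of KIF4A, which had 102 to 376 counts per sample, and only uniquely aligned reads were counted. How reads were divided between the pair was not tested, so the values of both are uncertain.

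KIF5B, the ubiquitous heavy chain of conventional kinesin, had the highest RPKM of the family, at 47.1 ± 2.18 (SD over the 12 samples). KIF1C, a vesicle motor that also serves Golgi traffic, followed at 33.3 ± 3.54 RPKM, and the ranges of the 2 genes did not overlap. KIF22, which pushes chromosome arms toward the spindle equator, and KIF2A, which removes tubulin from microtubule ends, were next at 16.3 ± 2.46 and 15.4 ± 1.19 RPKM and differed by less than their spread. KIF3B, a subunit of heterotrimeric kinesin-2, was at 12.8 ± 0.87 RPKM. The median of the gene means was 6.24 RPKM over 12 transport kinesins, 3.92 over 12 mitotic kinesins and 2.16 over 7 kinesins of cilia and microtubule ends. KIF26A, at 0.766 ± 0.197 RPKM, and KIF26B, at 0.273 ± 0.164 RPKM, were near the foot of the order. Among the genes tested KIF26B lay above only KIF1A, a neuronal vesicle motor, and overlapped it. KIF1A ranged from 0.044 to 0.275 RPKM. The high end of KIF26B came from 1 line.

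**Figure D1:**
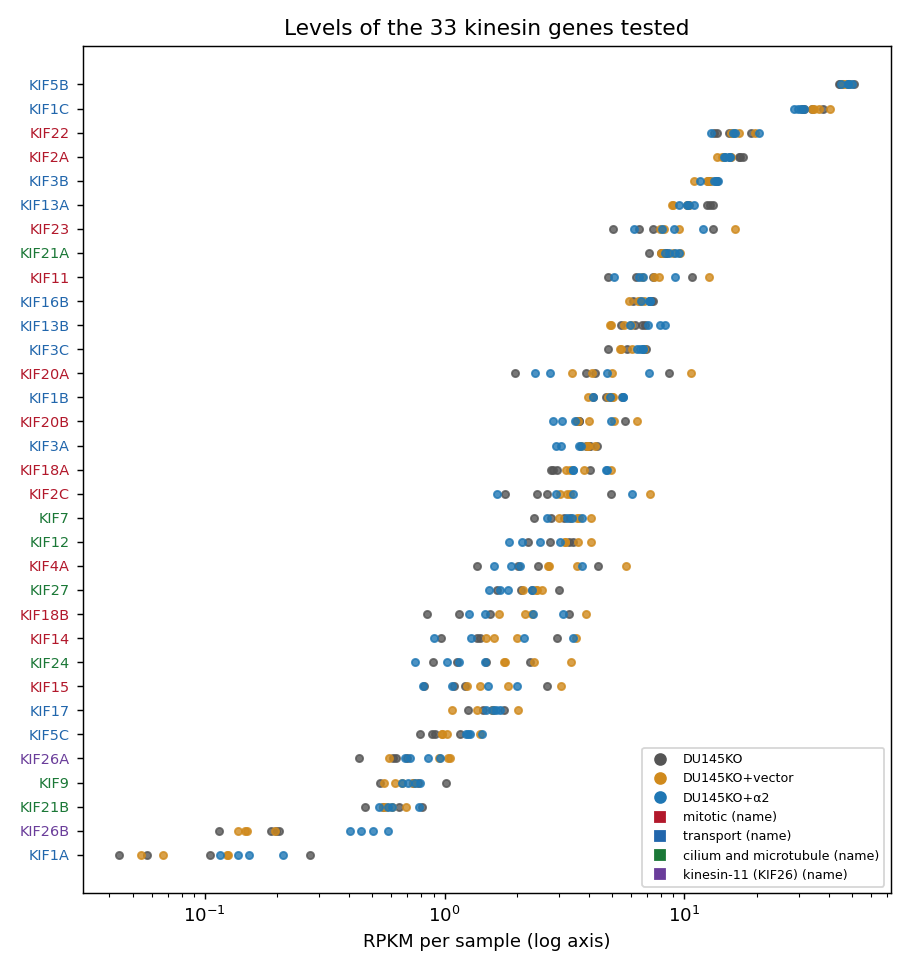
RPKM (log axis) of the 33 kinesin genes tested, ordered by their mean over 12 samples. Each point is a sample, coloured by line, and gene names are coloured by class. KIF5B is at the top at 47.1 RPKM, and KIF26B, second from the bottom, shows the DU145KO+α2 points apart from both other lines.

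KIF26B was about 3 times as high with α2 as without it, while its relative KIF26A did not pass in any comparison without the replicate block. In DU145KO 39, 46, 26 and 47 reads were counted on KIF26B, in DU145KO+vector 36, 26, 47 and 30, and in DU145KO+α2 88, 137, 105 and 126. As CPM these were 2.58, 2.81, 1.6 and 2.75 in DU145KO, 1.99, 1.87, 2.7 and 2.06 in DU145KO+vector, and 5.46, 6.84, 6.2 and 8.02 in DU145KO+α2. All samples of DU145KO+α2 lay above all samples of both other lines, which overlapped each other. The fold was 3.05 against DU145KO+vector (log2 fold change 1.61, SE 0.197, edgeR adjusted p = 9.36e-05) and 2.72 against DU145KO (1.44, SE 0.194, edgeR adjusted p = 0.000236). DU145KO+vector and DU145KO differed by -0.17 on the log2 scale (SE 0.213, edgeR adjusted p = 0.786). With any 1 of the 12 samples removed KIF26B still passed, with log2 fold changes of 1.51 to 1.74 against DU145KO+vector and 1.29 to 1.53 against DU145KO. The study picked KIF26B out on these samples, so its test here is not independent evidence. The study also reported quantitative PCR of KIF26B and its other selected genes, in spheroids and on coated dishes. By its account the spheroid PCR gave the same direction as the sequencing. It further reported less KIF26B mRNA in DU145KO+α2 cells given SB203580, an inhibitor of the kinase p38, on collagen and on fibronectin. Those measurements were not examined here.

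KIF26A was at 4.69, 4.15, 3.01 and 4.27 CPM in DU145KO, at 6.92, 3.95, 6.44 and 7.16 in DU145KO+vector, and at 4.78, 5.74, 4.66 and 6.49 in DU145KO+α2. The ranges of the lines overlapped in each comparison. DU145KO+α2 and DU145KO+vector differed by -0.18 on the log2 scale (SE 0.191, edgeR adjusted p = 0.629). Against DU145KO, KIF26A was 0.43 higher in DU145KO+α2 (1.34-fold, SE 0.197), at an edgeR adjusted p = 0.222 without the block and 0.0696 with it. DU145KO+vector was 0.61 above DU145KO (SE 0.197, edgeR adjusted p = 0.133), and this difference passed the test when the replicate number was a block in the model (edgeR adjusted p = 0.0192).

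**Figure D2:**
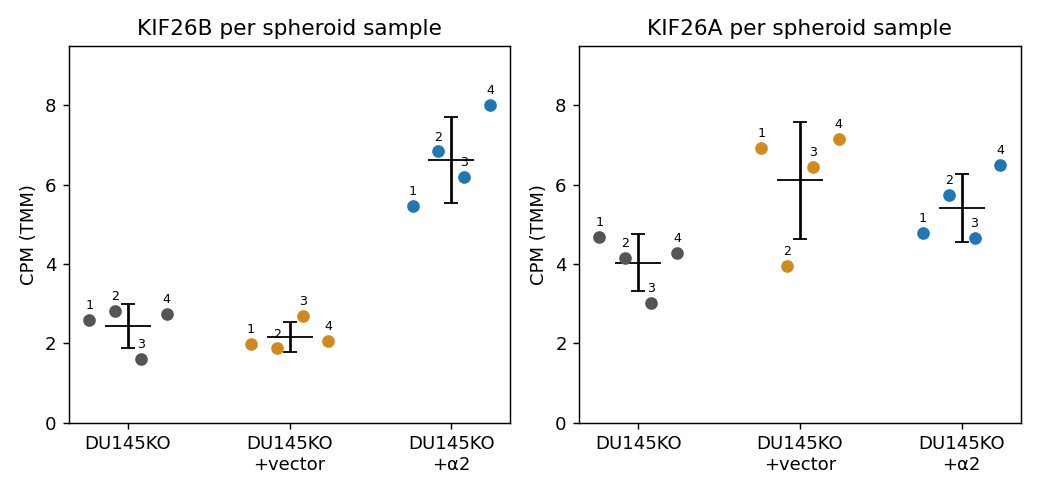
CPM of KIF26B (left) and KIF26A (right) in each spheroid sample, by line. Points are samples marked with their replicate number, and bars are the mean ± SD of 4 samples. KIF26B lies between 5.46 and 8.02 CPM in DU145KO+α2 and at or below 2.81 CPM elsewhere, while the 3 lines overlap for KIF26A.

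KIF26B lies on the plus strand of chromosome 1 (chr1:245154985-245709432, GRCh38), with 19 exonic blocks. The 31 tested genes within 5 Mb of it on either side had a median log2 fold change of 0.05 between DU145KO+α2 and DU145KO+vector, and 0.07 between DU145KO+α2 and DU145KO. Other genes of the WNT5A and ROR pathway were examined as a list of 12, of which 10 could be tested. Against DU145KO+vector 2 were higher in DU145KO+α2 and 1 was lower (5.96% and 5.95% of all genes tested), against DU145KO 1 was higher (3.09% of all genes), and between the 2 lines without α2 none passed by edgeR (1 at an unadjusted p under 0.05). WNT5A, the ligand, was at 13.7 to 15.1 CPM in DU145KO+α2, against 6.32 to 10.4 in DU145KO+vector and 8.11 to 10.4 in DU145KO. It rose by 0.86 (SE 0.138, edgeR adjusted p = 0.000742) and 0.63 (SE 0.136, edgeR adjusted p = 0.00818) on the log2 scale. WNT5B, a related ligand, had only 1 to 47 counts per sample and rose by 2.01 against DU145KO+vector (SE 0.436, edgeR adjusted p = 0.00639). Against DU145KO its difference of 1.16 passed only with the replicate block (edgeR adjusted p = 0.0903 without and 0.00217 with it). ROR1, a receptor for these ligands, had less mRNA in DU145KO+α2 than in the vector line, at 10.9 to 14.6 against 16.1 to 19.2 CPM (log2 fold change -0.48, SE 0.106, edgeR adjusted p = 0.00737), and did not pass against DU145KO (-0.13, edgeR adjusted p = 0.554). In DU145KO, ROR1 was at 13.4 to 15.1 CPM, below every sample of DU145KO+vector, a difference of 0.35 that passed only with the block (edgeR adjusted p = 0.104 without and 0.0118 with it). FZD1, another WNT receptor, was 0.34 higher than in DU145KO+vector, which passed only with the block (edgeR adjusted p = 0.0746 without and 0.0112 with it). All of these are mRNA levels. Whether the pathway genes have any part in the level of KIF26B mRNA was not tested.

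The number of kinesins that passed changed with the replicate block, as did the share of all genes. Between DU145KO+α2 and DU145KO+vector 2 of 33 kinesins were higher and 3 lower, where 5.96% of the 14732 genes tested were higher and 5.95% lower. Between DU145KO+α2 and DU145KO 1 was higher and 1 lower, with 3.09% and 5.08% of all genes. Between DU145KO+vector and DU145KO 0 were higher by edgeR (2 at an unadjusted p under 0.05) and 1 was lower, with 0.496% and 1.84% of all genes. With a fold change above 2 as well, KIF26B and KIF24 remained in the first comparison and KIF26B in the second, with none in the third, against 2.21%, 2.10% and 0.835% of all genes. With the replicate number as a block the counts rose to 2 higher and 9 lower, 3 higher and 4 lower, and 4 higher and 3 lower. The share of all genes rose too, to 12.9% higher and 13.7% lower, 9.93% and 12.4%, and 5.59% and 7.85%. The first 2 comparisons share the DU145KO+α2 samples, and each of the other pairs of comparisons also shares a line.

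**Figure D3:**
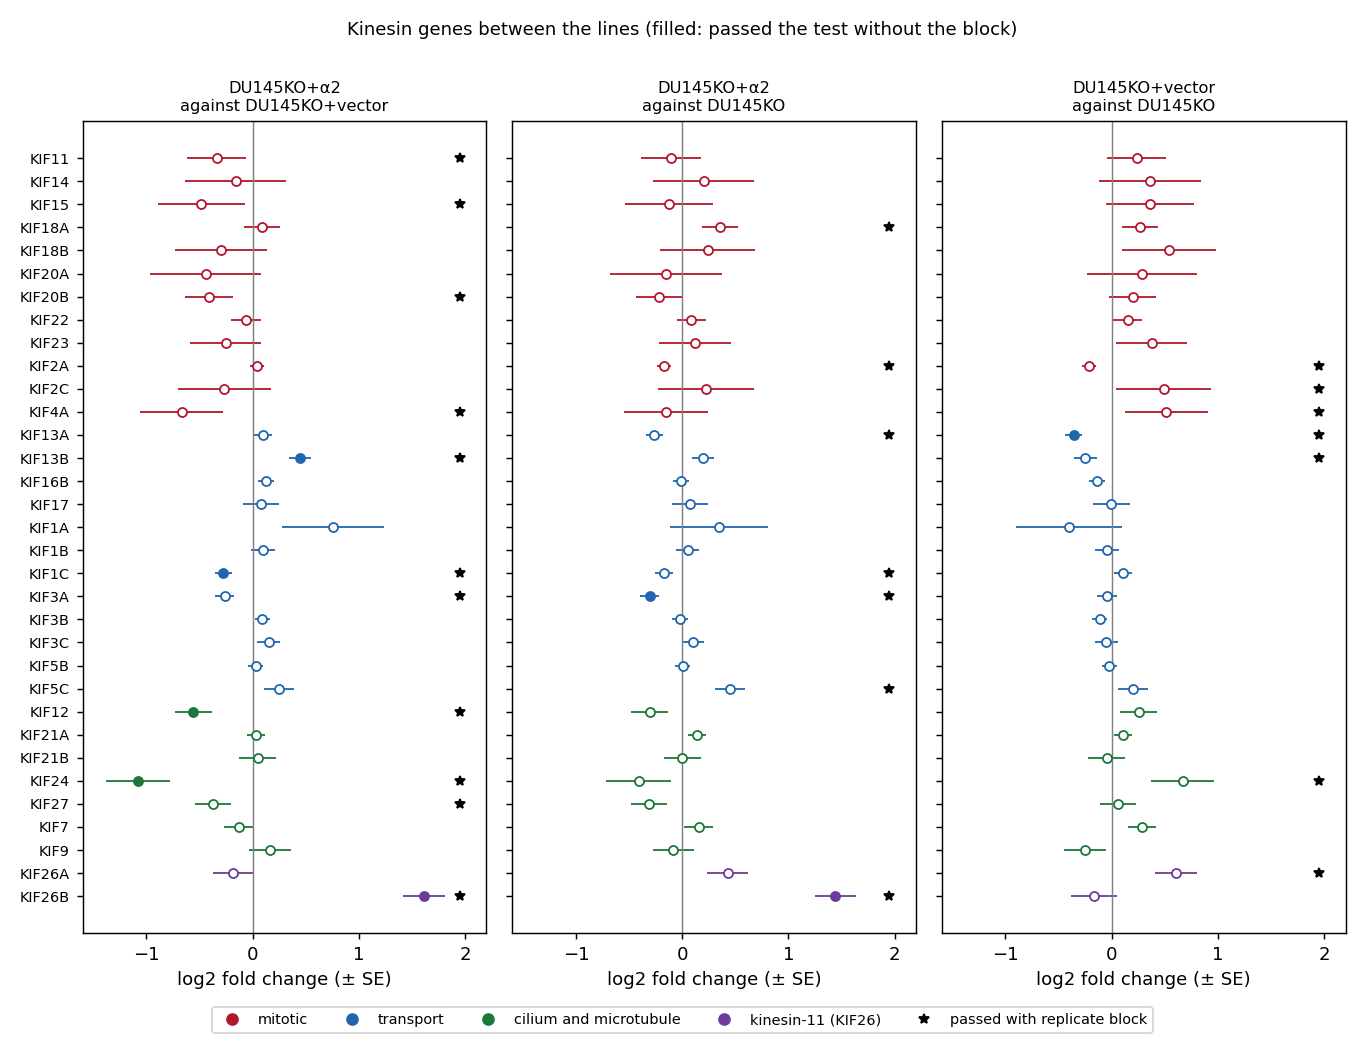
Log2 fold change ± SE of the 33 kinesin genes tested, by class, in the 3 comparisons of lines. Filled points passed the edgeR test at an adjusted p under 0.05, and stars mark genes that passed with the replicate number as a block. KIF26B stands at 1.61 and 1.44 in the comparisons with DU145KO+α2, and mitotic kinesins have longer error bars than transport kinesins and more stars than filled points.

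Among the 12 transport kinesins tested, 1 was higher and 1 lower between the transfected lines (5.96% and 5.95% of all genes), 1 was lower in DU145KO+α2 than in DU145KO (5.08%) and 1 in DU145KO+vector than in DU145KO (1.84%). Each of these 4 differed by less than 1.5-fold. KIF13B, which carries membrane cargo, was at 61, 69.1, 73.1 and 52.4 CPM in DU145KO+α2 and at 52.2, 48.8, 43.5 and 43.2 CPM in DU145KO+vector, so that all 4 samples with α2 lay above those with vector. DU145KO lay between, at 48.1 to 61.1 CPM. The log2 fold change between the transfected lines was 0.45 (SE 0.106, edgeR adjusted p = 0.0113), and it passed in all 12 fits with a sample left out. KIF13B is on the short arm of chromosome 8, and the 45 tested genes within 5 Mb had a median of 0.46, so the gene differed from its neighbours by -0.01. KIF1C was lower in DU145KO+α2, at 231, 243, 252 and 228 CPM against 272, 287, 323 and 272 in DU145KO+vector, without overlap. Its difference was -0.28 (SE 0.0822, edgeR adjusted p = 0.0386), with -0.01 for its 167 neighbours. The call was lost without any 1 of the 4 samples of DU145KO+α2 or without replicate 2 or 3 of DU145KO+vector, with edgeR adjusted p of 0.0588 to 0.136, and was kept in all 12 such fits when the block was used.

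KIF3A, the motor subunit that partners KIF3B in kinesin-2 and is needed to build cilia, was at 22.7, 18.3, 23.6 and 19.5 CPM in DU145KO+α2 and at 25.7, 24.8, 27.9 and 25.6 CPM in DU145KO. The groups did not overlap, and the difference was -0.31 (SE 0.0912, edgeR adjusted p = 0.0488). Leaving out any sample other than replicate 3 of DU145KO+α2 ended this call, with edgeR adjusted p of 0.0534 to 0.139. With the block the difference passed (edgeR adjusted p = 0.00362), and it was kept in all 12 such fits. The 45 tested genes within 5 Mb of KIF3A had a median of -0.17 in this comparison. Against DU145KO+vector, at 23.6 to 26.8 CPM, the difference of -0.26 passed only with the block (edgeR adjusted p = 0.0765 without and 0.00997 with it). KIF13A, a motor for endosomes, was highest in the untransfected line, at 114, 110, 113 and 91.3 CPM. It was at 88.8, 88.7, 78.3 and 78.1 CPM in DU145KO+vector and at 88.3, 88.5, 96.8 and 83.5 CPM in DU145KO+α2. DU145KO+vector lay below DU145KO (log2 fold change -0.36, SE 0.0827, edgeR adjusted p = 0.0318). This call was lost without replicate 1, 2 or 3 of DU145KO or replicate 2, 3 or 4 of DU145KO+vector, with edgeR adjusted p of 0.0529 to 0.119. It was kept in all 12 such fits when the block was used. DU145KO+α2 was lower than DU145KO by a value that passed only with the block (-0.26, edgeR adjusted p = 0.0637 without and 0.00263 with it).

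The other 8 transport kinesins did not pass without the block. KIF5C, a conventional kinesin chain of nerve cells, ranged from 13.7 to 16.2 CPM in DU145KO+α2 and from 9.09 to 13.2 CPM in DU145KO, a difference of 0.45 that passed only with the block (edgeR adjusted p = 0.0608 without and 0.0115 with it). KIF5B differed by at most 0.03 between any 2 lines, with an SE of 0.0706. KIF1A was 0.76 higher in DU145KO+α2 than in DU145KO+vector with an SE of 0.482 (edgeR adjusted p = 0.371), at 42 counts or fewer per sample. Of 19 tested genes whose products load or regulate transport kinesins none passed in any comparison by edgeR, with 1, 2 and 3 of them at an unadjusted p under 0.05 in the 3 comparisons in the order above. Those with the smallest p-values were FEZ2, FEZ1, the light chain gene KLC1 and the mitochondrial adaptor gene TRAK1, with unadjusted p of 0.0103, 0.0143, 0.027 and 0.0391. With the block FEZ2 was higher in DU145KO+α2 than in DU145KO (0.21, edgeR adjusted p = 0.0109), KLC1 was higher in DU145KO+vector than in DU145KO (0.15, edgeR adjusted p = 0.0475) and TRAK1 was lower there (-0.26, edgeR adjusted p = 0.00788). Between the transfected lines 1 partner passed with the block, MAPK8IP3, which was outside the rule for naming (0.13, edgeR adjusted p = 0.0485).

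Of the 7 tested kinesins of cilia and microtubule ends, 2 were below the vector line in DU145KO+α2, where 5.95% of all genes were lower. Between DU145KO+α2 and DU145KO none of the 7 passed, with or without the block. KIF24, which removes tubulin at the mother centriole and restrains cilium growth, was at 6.27, 7.14, 4.72 and 9.29 CPM in DU145KO+α2 and at 11, 11, 14.8 and 21.1 CPM in DU145KO+vector. The lines did not overlap, and DU145KO spanned 5.65 to 14.2 CPM. The log2 fold change was -1.08 (SE 0.302, edgeR adjusted p = 0.0367), and with the block the edgeR adjusted p was 5.5e-05. Without replicate 1, 2 or 3 of DU145KO+α2 or replicate 3 or 4 of DU145KO+vector the call was lost, with edgeR adjusted p of 0.0712 to 0.106. KIF24 lies on chromosome 9 (chr9:34252380-34329268, GRCh38, minus strand), where the 80 tested genes within 5 Mb had a median of -0.51, and it lay -0.57 from that median. DU145KO+vector was above DU145KO by 0.67, which passed only with the block (edgeR adjusted p = 0.315 without and 0.00521 with it).

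KIF12, known from epithelia of kidney and liver, was at 4.97, 6.04, 4.25 and 3.75 CPM in DU145KO+α2 and at 8.09, 7.18, 6.44 and 6.4 CPM in DU145KO+vector, again without overlap. The difference was -0.56 (SE 0.172, edgeR adjusted p = 0.0448), with a median of -0.28 over 41 neighbours elsewhere on chromosome 9. DU145KO, at 4.55 to 6.9 CPM, overlapped both lines, and DU145KO+α2 did not pass against it (-0.31, edgeR adjusted p = 0.34 without and 0.147 with the block). Only 3 of the 12 fits with a sample left out kept the call against DU145KO+vector, those without replicate 3 or 4 of DU145KO or replicate 2 of DU145KO+α2. The others gave edgeR adjusted p of 0.0511 to 0.131. With the block KIF12 passed against DU145KO+vector (edgeR adjusted p = 0.00599), and all 12 such fits kept that call. KIF27, a relative of the Hedgehog pathway kinesin KIF7, was 0.37 lower than in DU145KO+vector by a value that passed only with the block (edgeR adjusted p = 0.192 without and 0.0203 with it). KIF7 itself, KIF9, KIF21A and KIF21B did not pass in any comparison with or without the block, the smallest adjusted p among them being 0.34 without and 0.066 with it, both for KIF7. Exons of KIF9 and KIF7 share 14.801% and 10.815% of their bases with genes on the opposite strand, and the strand setting of the counting was not given, so their values may hold reads of KIF9-AS1 and TICRR.

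**Figure D4:**
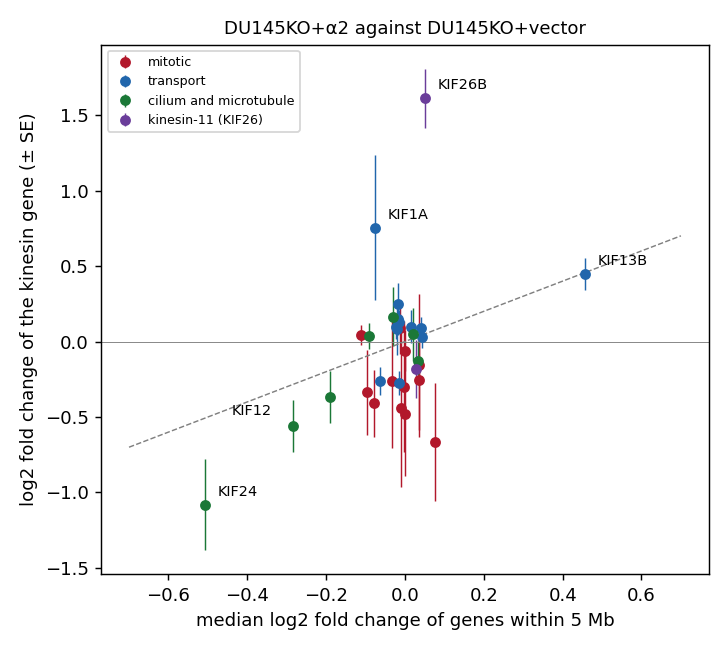
Log2 fold change of each tested kinesin gene between DU145KO+α2 and DU145KO+vector (± SE) against the median log2 fold change of the tested genes within 5 Mb. The dashed line marks equal values. KIF13B lies on it (0.45 against 0.46), KIF24 and KIF12 lie below it, and KIF26B lies far above it at 1.61 against 0.05.

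The 12 mitotic kinesins tested differed from the transport kinesins in their spread between samples of the same line, which was larger for most of them. KIF2A, KIF22 and KIF18A varied least, with residual SDs within lines of 0.0679, 0.224 and 0.269 on the log2 scale. Among transport kinesins KIF1A, at low counts, had 0.707. Without the replicate block none of the 12 passed in any comparison of lines by edgeR, DESeq2 or voom with limma (at an unadjusted p under 0.05 only KIF2A did in edgeR). Of all genes 5.96% were then higher and 5.95% lower, 3.09% and 5.08%, and 0.496% and 1.84%. With the block 4, 2 and 3 passed in edgeR. The shares of all genes were then 12.9% and 13.7%, 9.93% and 12.4%, and 5.59% and 7.85%. The smallest unadjusted p were 0.0054 and 0.0194, both for KIF2A against DU145KO. The median SE of the log2 fold change between the transfected lines was 0.363 over mitotic kinesins and 0.0986 over transport kinesins. On the log2 scale the residual SD within lines had a median of 0.536 over mitotic kinesins, 0.14 over transport kinesins and 0.164 over all genes tested. In these bulk samples fewer dividing cells and less of these mRNAs per cell cannot be told apart. The mitotic members named were chosen after their values were seen, because no mitotic kinesin met the rule for naming.

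KIF20A, which acts in the midzone of the dividing cell during cytokinesis, had 14.7, 13.7, 6.94 and 30.2 CPM in the DU145KO samples numbered 1 to 4. It had 14.2, 11.8, 17.4 and 37 CPM in DU145KO+vector and 9.43, 16.5, 8.32 and 24.8 CPM in DU145KO+α2. The sample numbered 4 was the highest of each line. KIF2C, which frees wrongly attached chromosomes by taking microtubules apart at kinetochores, was at 8.79, 8.06, 5.96 and 16.3 CPM in DU145KO, at 9.86, 10.6, 11 and 23.7 CPM in DU145KO+vector and at 9.37, 11.2, 5.43 and 20 CPM in DU145KO+α2. KIF14, another kinesin of cytokinesis, reached 21.6, 25.9 and 25.1 CPM in the samples numbered 4 and stayed between 6.61 and 15.5 CPM in the other 9. In DU145KO and DU145KO+α2 the sample numbered 3 was the lowest for all 3 genes, which was not so in DU145KO+vector.

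The sample numbered 4 was the highest in all 3 lines for 11 of 12 mitotic kinesins, for 1 of 12 transport kinesins (KIF3C), for 1 of 7 kinesins of cilia and microtubule ends (KIF24), for neither KIF26 gene and for 6.92% of all genes tested. The exception among mitotic kinesins was KIF2A, whose 4 replicate means spanned 1.06-fold. The span of replicate means was 2.99-fold for KIF20A, 2.76-fold for KIF2C, 2.7-fold for KIF14 and 2.49-fold for KIF18B, with a median of 2.15-fold over mitotic kinesins, 1.16-fold over transport kinesins and 1.21-fold over all genes. A quasi-likelihood F-test of the replicate number, added after the values were seen, called 11 of 12 mitotic kinesins, 5 of 12 transport kinesins, 2 of 7 of the cilium and microtubule class and 0 of 2 KIF26 genes, against 35.7% of all genes (edgeR, adjusted p under 0.05). The 2 KIF26 genes had unadjusted p of 0.227 and 0.468 in it. KIF26B had a span of 1.19-fold.

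**Figure D5:**
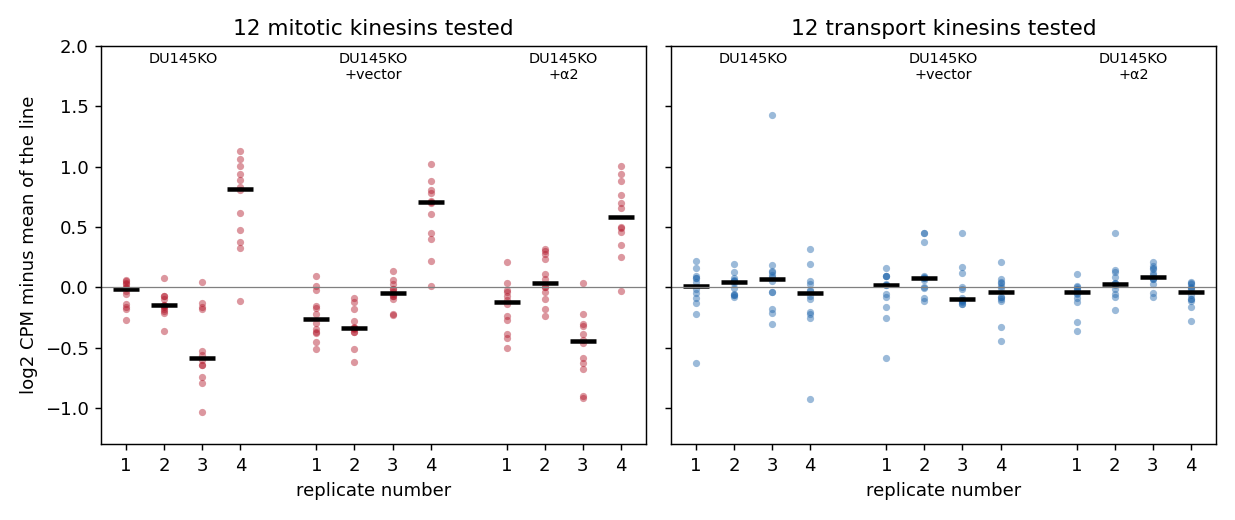
Deviation of log2 CPM from the mean of its line for the 12 mitotic (left) and 12 transport kinesins tested (right), by line and replicate number. Points are genes and black bars their median. The median mitotic kinesin lies 0.58 to 0.82 above the line mean in the samples numbered 4, while the transport medians stay between -0.10 and 0.09, and the single high transport point is KIF1A.

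The 20 genes listed as partners of mitotic kinesins, among them the kinases AURKA, AURKB and PLK1, the cyclin genes CCNB1 and CCNB2 and the proliferation marker MKI67, all had their highest value in the sample numbered 4 of each line, and all 20 were called for the replicate number. Of the motors outside the naming rule, the mitotic motors KIFC1 and CENPE did so too. What the replicate number stands for was not given in the sources used here, and its part in the differences between lines was not tested beyond the block.

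With the replicate number as a block the median SE of mitotic kinesins fell from 0.363 to 0.132, and some members passed. Between the transfected lines 4 of 12 were lower with α2, where 13.7% of all genes were. KIF4A, which compacts chromosomes and organises the spindle midzone, differed by -0.68 on the log2 scale (SE 0.146, edgeR adjusted p = 0.00306). The plus-end motor KIF11, which pushes spindle poles apart, differed by -0.33 (edgeR adjusted p = 0.0226). KIF15, which can take over that task, differed by -0.48 (edgeR adjusted p = 0.0461). KIF20B, a kinesin of late cytokinesis, differed by -0.41 (edgeR adjusted p = 0.00148). Without the block the edgeR adjusted p of these 4 was 0.29 to 0.535. Against DU145KO, which also lacks α2, none of the 4 passed in DU145KO+α2 with or without the block (edgeR adjusted p = 0.0979 to 0.825 with it). KIF4A and KIF20B passed in all 12 blocked fits with a sample left out, KIF11 in 7 and KIF15 in 4. KIF4A was at 8.38, 9.24, 7.26 and 16.9 CPM in DU145KO+α2 and at 12.2, 12.1, 16.1 and 25.9 CPM in DU145KO+vector. Each number was thus lower with α2 than with vector although the ranges overlapped. In DU145KO it was at 11, 9.22, 6.26 and 19.8 CPM. KIF20B was at 22.3, 19.9, 18.4 and 32.1 CPM with α2 and at 25.7, 23.3, 33 and 41.1 CPM with vector, and again each number was lower.

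Between DU145KO+vector and DU145KO, KIF4A (0.56, edgeR adjusted p = 0.0216) and KIF2C (0.51, edgeR adjusted p = 0.0171) were higher with the block and KIF2A was lower (-0.21, edgeR adjusted p = 0.0161). Without the block their edgeR adjusted p was 0.614, 0.691 and 0.114. Between DU145KO+α2 and DU145KO, KIF18A, which damps chromosome movements, was higher with the block (0.36, edgeR adjusted p = 0.0123) and KIF2A lower (-0.17, edgeR adjusted p = 0.0325). Without the block the 2 kinesins had edgeR adjusted p of 0.241 and 0.135. Of the bases of the KIF2A exons 18.743% lie opposite exons of DIMT1. The median log2 fold change over the 12 mitotic kinesins, without the block, was -0.28 between DU145KO+α2 and DU145KO+vector, -0.01 between DU145KO+α2 and DU145KO and 0.32 between DU145KO+vector and DU145KO. Over all genes these medians were -0.01, -0.00 and -0.00, and over transport kinesins 0.10, 0.03 and -0.05. Between the transfected lines 10 of 12 mitotic kinesins lay below 0, and between DU145KO+vector and DU145KO 11 of 12 lay above 0, both comparisons sharing the DU145KO+vector samples.

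The mitotic partners had medians of -0.30, 0.07 and 0.37 in the same 3 comparisons. Only KNSTRN, a spindle and kinetochore gene, passed without the block, at a lower level with α2 than with vector (16.2 to 25.4 against 26.5 to 40.9 CPM, -0.64, SE 0.171, edgeR adjusted p = 0.0256). The other 3 partners with the smallest p-values were INCENP, RACGAP1 and CCNB2, at unadjusted p of 0.174, 0.184 and 0.22. With the block 5 of 20 partners were lower with α2 than with vector (13.7% of all genes), and 7 of 20 were higher in DU145KO+vector than in DU145KO (5.59% of all genes). None of the 4 motors outside the naming rule passed by edgeR without the block (1, 0 and 1 at an unadjusted p under 0.05). The smallest unadjusted p was 0.0145 for KIFC3 between the transfected lines, where it passed with the block (-0.24, edgeR adjusted p = 0.00433).

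The promoters of the family were read from RefSeq (GRCh38.p14), as windows of 300 bases, 250 before and 50 after a gene's start, available for 33 of the 39 genes. They were searched on both strands for CCAAT and for the core of the cell cycle homology region (CHR). The core was taken as TTTGAA, its reverse complement included. A second form of the core, TTCGAA, reads alike on both strands and was counted with it. In the windows printed no base belongs to both motifs. These letters are known from promoters of genes expressed in G2 and mitosis. The CHR letters were found in 10 of 14 mitotic kinesins, 1 of 11 transport kinesins, 1 of 7 of the cilium and microtubule class and 19.5% of the 27305 genes with a window. CCAAT was found in 71.4% of mitotic kinesins, 36.4% of transport kinesins and 39.7% of all genes, and both in 64.3%, 9.09% and 7.85%. The 14 mitotic kinesins include KIF2B and KIF4B, which were not tested for expression. The stretch of the KIF4B window that holds both motifs closely resembles that of KIF4A, so the matches of this pair are not independent. The following windows show the range, with matches in capitals, 5′ to 3′ on the strand of the gene. KIF14 and KIF23, a motor of the central spindle, have both motifs, and their highest value lay in the sample numbered 4 of each line. KIF24 is the member outside the mitotic class of which the same is true. KIF2C has neither although it varied as they did, and KIF5B has both although its replicate means spanned only 1.08-fold.
KIF14, chr1:200620702-200621001, minus strand: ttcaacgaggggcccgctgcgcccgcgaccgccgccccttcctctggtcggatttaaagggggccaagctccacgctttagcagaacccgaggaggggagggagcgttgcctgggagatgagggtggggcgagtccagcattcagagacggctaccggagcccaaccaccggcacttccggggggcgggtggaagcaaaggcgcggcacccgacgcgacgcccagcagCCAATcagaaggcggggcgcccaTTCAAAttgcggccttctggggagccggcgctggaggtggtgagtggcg
KIF23, chr15:69414099-69414398, plus strand: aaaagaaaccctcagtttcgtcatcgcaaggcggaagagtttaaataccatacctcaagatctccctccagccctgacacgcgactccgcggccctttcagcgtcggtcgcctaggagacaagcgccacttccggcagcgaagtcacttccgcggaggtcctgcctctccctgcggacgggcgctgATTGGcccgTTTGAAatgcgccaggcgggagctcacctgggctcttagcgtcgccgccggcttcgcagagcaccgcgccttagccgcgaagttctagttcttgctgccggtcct
KIF24, chr9:34329219-34329518, minus strand: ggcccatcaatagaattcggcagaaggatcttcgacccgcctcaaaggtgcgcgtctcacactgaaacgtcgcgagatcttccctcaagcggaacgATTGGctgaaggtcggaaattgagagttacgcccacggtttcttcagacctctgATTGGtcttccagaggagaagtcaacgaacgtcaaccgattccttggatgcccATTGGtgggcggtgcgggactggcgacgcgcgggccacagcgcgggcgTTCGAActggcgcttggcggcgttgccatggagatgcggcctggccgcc
KIF2C, chr1:44739587-44739886, plus strand: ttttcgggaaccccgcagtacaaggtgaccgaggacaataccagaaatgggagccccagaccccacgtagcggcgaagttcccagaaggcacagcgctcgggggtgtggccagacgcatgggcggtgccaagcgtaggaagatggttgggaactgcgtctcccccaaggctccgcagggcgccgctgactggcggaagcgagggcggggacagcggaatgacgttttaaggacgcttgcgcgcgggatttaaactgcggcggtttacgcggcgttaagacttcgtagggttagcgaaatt
KIF5B, chr10:32056376-32056675, minus strand: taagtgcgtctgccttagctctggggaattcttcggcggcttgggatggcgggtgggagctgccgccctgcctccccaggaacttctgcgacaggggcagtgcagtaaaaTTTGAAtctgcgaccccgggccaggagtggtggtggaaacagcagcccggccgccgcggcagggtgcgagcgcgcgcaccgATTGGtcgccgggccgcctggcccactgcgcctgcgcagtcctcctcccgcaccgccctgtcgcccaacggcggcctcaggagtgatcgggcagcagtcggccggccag

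A match is a run of letters and not a bound site, and a window without a match says nothing of the rest of the gene. The window of KIF26A held neither motif. KIF26B had no entry in the promoter table.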

How the data were processed

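Poly(A) RNA of spheroids was sequenced from 12 samples, 4 of each line. Per the labels and the study's methods, the authors aligned single-end reads to hg38 with TopHat2 2.1.0, counted uniquely aligned reads per gene with Subread 1.5.0 and deposited the read counts without normalization. The strand setting of the counting is not given in the sources used here. The authors also deposited RPKM values, scaled by TMM and divided by gene length. Here the counts were tested and RPKM served only to compare genes with each other.

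The tests were run with edgeR 4.0.16 (R 4.3.3). Genes passing filterByExpr with a minimum count of 10 were kept (14732 of 26485), TMM factors were used, and the robust quasi-likelihood F-test was run on all 12 samples with a factor for the line. P-values were two-sided and adjusted by Benjamini-Hochberg over all genes tested, with 0.05 as the threshold, both without and with the replicate number as a block. Same-numbered samples of different lines moved together around the mean of each line (all 12 same-number pairs correlated, r = 0.135 to 0.554). The numbers, which come from the sample labels, were therefore taken to pair the samples. The 36 other pairs had r of -0.29 to 0.149, so the ranges overlapped slightly. Their average of -0.126 is no further evidence of pairing. Deviations from a line mean sum to 0, which by itself pushes these pairs below 0 when same-number pairs correlate. The sources used here do not say what a number marks, and the p-values measure the spread between these samples. Every pair of replicates differed by more than sampling noise (chi-square per degree of freedom 6.98 to 23.7).

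Alternatives were the size factors and Wald test of DESeq2 1.42.0, library size alone, voom with limma 3.58.1, other count filters, the compared lines only, a fold change above 2 as well, subtraction of the median of neighbouring genes within 5 Mb, KIF2A taken off the mitotic list, and each sample left out. Chosen after the values were seen were the test of the replicate number, the removal of all samples numbered 4, and the block in DESeq2 and limma and in fits with a sample left out. Positions come from GENCODE release 44 (GRCh38) and promoters from RefSeq. Members and gene lists were chosen with earlier results of these data known. The rule named KIF26A, KIF26B, up to 6 members of each class with the smallest p among those called in any comparison, and the 4 genes of each partner list with the smallest p. Mitotic kinesins, KIF5B, KIF5C, KIF1A and KIF27 were named after their values were seen.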

Additional observations from a re-analysis of the deposited data

Results flagged for a closer look

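Within a line, a sample was noted when its gap to the nearest other sample took more of the range of the 4 samples than Dixon's 95% limit, which chance exceeds in about 1 of 20 groups. The groups were the 4 samples of each line, for each tested kinesin, ITGA2, the 4 genes named from each partner list and the total count. Of 153 groups examined, 9 held such a sample, where chance gives about 7.65. In 6 of these it was the sample numbered 4 that was high. They were KIF20B in DU145KO (ratio 0.978, 36.6 CPM against 23.4 to 23.7), KIF18A in DU145KO (0.84, 14.2 against 9.59 to 10.3 CPM), KIF2C in DU145KO+vector (0.915, 23.7 against 9.86 to 11 CPM), the mitotic motor gene CENPE in DU145KO+α2 (0.887), and the mitotic partners RACGAP1 (0.918) and CCNB2 (0.906) in DU145KO+vector. The other 3 were KIF16B in DU145KO, where the sample numbered 3 was low (0.879), KIF5C in DU145KO+vector, where the sample numbered 2 was high (0.868), and ROR1 in DU145KO+vector, where the sample numbered 1 was low (0.878). The cause was not tested. Genes that move together are not independent groups, so the number expected by chance is only a rough guide. Mitotic partners outside the 4 named were not examined. Several of them also exceeded the limit with the sample numbered 4 high, among them CCNB1 (0.963) and AURKA (0.961) in DU145KO+vector.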

How the results depend on the processing

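The log2 fold change of KIF26B kept its direction and its side of the threshold under each alternative tested. It was 1.51 to 1.74 against DU145KO+vector and 1.29 to 1.53 against DU145KO with 1 sample left out, and -0.32 to -0.09 between DU145KO+vector and DU145KO. With the replicate block it was 1.59, 1.44 and -0.15.

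The counts of kinesins called were less stable. With the replicate block they rose from 5 to 11 between DU145KO+α2 and DU145KO+vector, from 2 to 7 between DU145KO+α2 and DU145KO, and from 1 to 7 between DU145KO+vector and DU145KO. For mitotic kinesins the block gave 4, 2 and 3 in place of 0 in each. For transport kinesins it gave 3 in place of 2, 4 in place of 1 and 2 in place of 1. With the block in voom with limma the counts were 10, 7 and 8 kinesins, 3, 2 and 4 mitotic and 3, 4 and 2 transport. With the block in the DESeq2 Wald test they were 11, 6 and 9 kinesins, 4, 1 and 5 mitotic and 3, 4 and 2 transport. In blocked edgeR the share of all genes rose as well, to 12.9% higher and 13.7% lower, 9.93% and 12.4%, and 5.59% and 7.85%. This share is not given here for the blocked fits of limma and DESeq2, so their counts cannot be set against all genes. Blocked fits share the pairing by replicate number, and the median SE fell with it.

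Between DU145KO+α2 and DU145KO+vector, no filter on low counts left 2 kinesins and 1 transport kinesin, and a fold change above 2 left 2 and 0. Without all samples numbered 4, 1 mitotic kinesin (KIF4A, -0.69, edgeR adjusted p = 0.0479) and 1 transport kinesin passed. Between DU145KO+α2 and DU145KO, 1 kinesin and 0 transport kinesins passed with the size factors of DESeq2, with no filter, with at least 10 counts in every sample, with the compared lines only and with a fold change above 2. Library size alone and the DESeq2 Wald test each gave 2 transport kinesins. Between DU145KO+vector and DU145KO, the compared lines only and a fold change above 2 each left 0 kinesins and 0 transport kinesins. The cause of these changes was not tested. Apart from that of the fold change above 2, the share of all genes called is not given here for these settings. With 1 sample left out the counts were 2 to 5, 1 to 3 and 0 to 1 kinesins, 1 to 2, 0 to 2 and 0 to 1 transport kinesins, and 0 to 0 mitotic kinesins in each comparison. Without KIF2A the mitotic counts stayed at 0. Other scalings moved the median of all genes by less than 0.01 on the log2 scale.

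At fewer than 50 counts per sample KIF26B in the lines without α2, KIF1A and WNT5B carry large counting error, and the 6 untested kinesins could not be compared.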
